A study of Homo sapiens with 6 samples.

Results

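The 5 genes described here, NFKB1, NFKB2, REL, RELA and RELB, encode the subunits of the transcription factor NF-kB. They were taken by name from 19970 protein-coding genes on chromosomes 1 to 22 and X, and every accessibility summit in each gene body and the 50 kb on either side was collected from 6 libraries. All libraries came from GM12878, a B lymphoblastoid line immortalised with Epstein-Barr virus. The question was how open chromatin differs between cells gated by their level of H3K27ac, a histone acetylation found at active enhancers and promoters. The H3K27ac high group (2 libraries) and the H3K27ac low group (2 libraries) were fixed with paraformaldehyde, stained for the mark, sorted and profiled by InTAC-seq, which is ATAC-seq on fixed, stained cells, with crosslinks reversed overnight after transposition. The live control (2 libraries) was fresh GM12878 cells, neither fixed nor sorted on the mark, whose DNA was purified straight after transposition. Fixation and sorting therefore cannot be told apart in any comparison with the live control. The replicates of a group are separate aliquots of 50000 cells, so their spread may be technical. In these bulk libraries, a site open in fewer cells and a site less open in each cell cannot be told apart.

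NF-kB works as pairs of subunits that share a DNA-binding Rel homology domain. NFKB1 and NFKB2 are made as long precursors and processed to short subunits without a transactivation domain of their own, whereas RELA, REL and RELB carry one. In the canonical route, an inhibitor is degraded and frees pairs of NFKB1 product with RELA or REL. In the alternative route, the NFKB2 precursor is processed and pairs with RELB enter the nucleus. B cells use both, and in lymphoblastoid lines the viral protein LMP1 engages both as a mimic of CD40.

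The lists held 25754 and 46708 summits in H3K27ac high, 41980 and 51944 in H3K27ac low and 70100 and 72476 in live control libraries. Read depth is unknown. Both live control lists were longer than all others, while the high and low lists overlapped in length. The part of list length in the results below was not tested beyond the use of lists of 1 length and the alternative lengths given with them. Each list was therefore reduced to its 25681 best-scoring summits on chromosomes 1 to 22 and X, the whole of the shortest list (H3K27ac high replicate 1) and between 35.5% and 61.3% of the others. H3K27ac high replicate 1 was thus kept down to its lowest score, 2.04, while the other lists ended at scores of 9.54 to 18.2. The rank of a summit is its place in its own list, 1 being the best score. A gene's start is called open where one of these best summits lies within 1 kb of an annotated start. For genes with no entry in the promoter table (4159 of 19970) either gene end counted, so such a call can rest on the 3′ end. For RELB only the lower-coordinate end was used. The start of MS4A1, which encodes the B cell protein CD20, was open in all 6 libraries, as were those of CD79B and BANK1. The other 7 of 10 B cell markers were not, and the starts of EBF1, BLK, CD22 and CR2 were open in no library. Of 12 T and NK cell markers 1, CD3E, was open in all 6 libraries, and none of 10 myeloid and none of 8 erythroid markers was open in any library.

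Each of the 5 genes had a summit at its own start in all 6 libraries, and the promoter sequences under those summits are shown first, for the 4 genes with an entry in the promoter table. They are RefSeq windows on GRCh38.p14 from 250 bases before to 50 bases after an annotated start, printed 5′ to 3′ on the gene's strand. Capitals mark matches to the kappaB consensus, the NF-kB binding motif, on either strand. The NFKB1 window is chr4:102501109-102501408 (plus strand) and held a summit in 5 libraries. The NFKB2 window of its second annotated start is chr10:102394328-102394627 (plus strand) and held one in all 6. The window of the third annotated start of NFKB2 is chr10:102395455-102395754 (plus strand) and also held one in all 6. The REL window is chr2:60881324-60881623 (plus strand) and held one in 5 libraries, the missing one being H3K27ac high replicate 1, whose summit lay further upstream. The RELA window of its second annotated start is chr11:65662867-65663166 (minus strand) and held one in all 6.
NFKB1: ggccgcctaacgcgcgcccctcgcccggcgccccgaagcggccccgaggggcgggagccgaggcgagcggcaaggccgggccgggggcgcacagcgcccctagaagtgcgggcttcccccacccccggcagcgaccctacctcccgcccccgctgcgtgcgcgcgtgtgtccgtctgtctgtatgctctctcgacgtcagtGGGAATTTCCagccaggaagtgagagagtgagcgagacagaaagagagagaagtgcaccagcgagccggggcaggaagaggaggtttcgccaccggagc
NFKB2, the second start: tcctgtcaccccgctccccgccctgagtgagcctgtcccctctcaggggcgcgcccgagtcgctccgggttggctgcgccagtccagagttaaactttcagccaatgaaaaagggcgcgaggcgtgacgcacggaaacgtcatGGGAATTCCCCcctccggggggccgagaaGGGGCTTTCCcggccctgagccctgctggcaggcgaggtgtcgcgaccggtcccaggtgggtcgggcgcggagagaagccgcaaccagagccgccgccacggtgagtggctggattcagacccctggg
NFKB2, the third start: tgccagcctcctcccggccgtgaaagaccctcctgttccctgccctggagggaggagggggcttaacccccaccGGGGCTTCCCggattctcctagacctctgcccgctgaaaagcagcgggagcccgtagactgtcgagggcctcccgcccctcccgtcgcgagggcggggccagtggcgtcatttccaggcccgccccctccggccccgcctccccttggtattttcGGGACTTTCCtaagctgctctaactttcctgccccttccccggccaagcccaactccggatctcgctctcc
REL: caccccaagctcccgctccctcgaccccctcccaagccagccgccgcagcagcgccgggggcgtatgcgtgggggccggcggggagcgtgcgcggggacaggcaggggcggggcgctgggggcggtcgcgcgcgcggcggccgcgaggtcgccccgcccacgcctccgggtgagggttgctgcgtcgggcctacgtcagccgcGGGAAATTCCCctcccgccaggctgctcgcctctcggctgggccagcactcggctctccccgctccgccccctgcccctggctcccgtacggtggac
RELA, the second start: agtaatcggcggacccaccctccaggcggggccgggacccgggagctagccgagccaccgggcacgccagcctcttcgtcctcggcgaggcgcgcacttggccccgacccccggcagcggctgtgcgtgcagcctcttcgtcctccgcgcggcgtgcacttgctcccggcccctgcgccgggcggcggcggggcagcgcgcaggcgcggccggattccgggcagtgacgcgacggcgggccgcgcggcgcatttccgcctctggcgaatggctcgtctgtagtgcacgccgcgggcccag

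The kappaB consensus was matched in 4 of these 5 windows. NFKB1 had GGGAATTTCC at chr4:102501310-102501319, centred 44 bp before the start and 10 to 56 bp from the 5 summits in the window. NFKB2 had GGGAATTCCC at chr10:102394471-102394480, overlapped by GGGGAATTCC 1 base further on the other strand, and GGGGCTTTCC at chr10:102394500-102394509. The 6 summits lay 90 to 163 bp from these, all on the upstream side. At the third start NFKB2 had GGGGCTTCCC and GGGACTTTCC. REL had GGGAAATTCC at chr2:60881527-60881536, overlapped by GGGAATTTCC on the other strand, and its 5 summits lay 3 to 124 bp from them. RELA had no match in this window. The windows of the other 3 annotated starts (the second of NFKB1, the first of NFKB2 and the first of RELA) held neither a summit nor a match.

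Among all 35116 promoter windows 11.3% held a kappaB match. The share was 12.8% of the 8380 windows with a summit in 5 or 6 libraries, 15.8% of the 4952 with one in 1 to 4 libraries and 9.62% of the 21629 with none. The members' windows were rich in G and C, with 67.7% to 79% GC in the 5 windows with summits and 58.7% as the median of all windows, and the consensus itself is G and C at its ends. The GC box GGGCGG, read by SP family factors, was in 7 of the 8 member windows and in 45% of all. CCAAT was in 2 of 8 against 34.6% of all, and the PU.1 core GAGGAA in 2 of 8 against 27.9%. A motif bound by IRF factors was in 1 of 8 (GAAACTGAAA, in the window of the first start of RELA) against 3.57%. The ETS form CCGGAAG (10.3% of all windows), the AP-1 form TGANTCA (7.71%), the RUNX form TGTGGT (13.1%) and the E-box CACGTG (7.26%) were in none of the 8. All motifs were sought on both strands, and RELB, which had no window in the table, is not part of these counts.

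**Figure D1:**
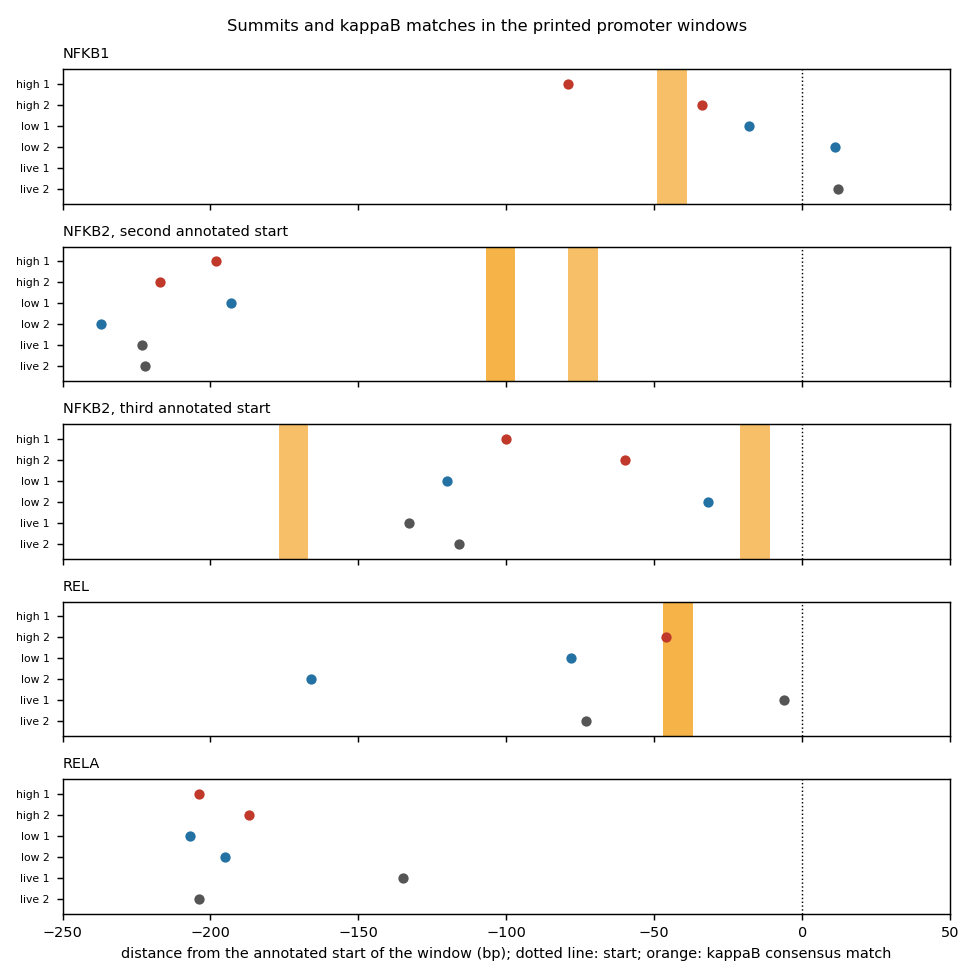
Summit positions in the 5 promoter windows, as distance in bp from the annotated start on the gene's strand (x axis), with 1 row per library from H3K27ac high at the top to the live control at the bottom. Points are summits in the full lists and shaded bars are kappaB matches; in NFKB2 the summits of the second start lie upstream of both match positions, while in REL and NFKB1 they scatter around the match.

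All 5 subunit genes had an open start in all 6 libraries. Of all 19970 genes, 41.6% did. The count was 4 with 12840 summits per list, where NFKB1 was lost, and 4 within 500 bp of a start, where RELB was lost. The median rank of such a start lay between 5761 and 7298.5 by library, and in each library 3 or 4 of the 5 members ranked better than the median.

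NFKB1, on chr4:102501359-102617302, encodes the precursor processed to the p50 subunit. Its start ranked 9840 and 16219 in H3K27ac high, 12454 and 11623 in H3K27ac low and 19420 and 13520 in live control libraries. It was the worst-ranked member start in all libraries except H3K27ac high replicate 1, where RELA ranked lower. In 5 libraries the summit lay between 79 bp before and 12 bp after the first annotated start. In live control replicate 1 it lay at chr4:102501992, 58 bp past the second annotated start, and H3K27ac high replicate 1 had a weaker summit there as well, at rank 19291.

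RELA, on chr11:65653601-65663857 on the minus strand, encodes p65, the transactivating partner of p50. Its start ranked 10559 and 4774 in H3K27ac high, 5301 and 2050 in H3K27ac low and 5748 and 4056 in live control libraries. The 3 groups overlapped, and the spread within the high group was wider than that within either other group. All 6 summits lay at -207 to -135 bp relative to the second annotated start, chr11:65662916, and none at the first, chr11:65663857.

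REL, on chr2:60881574-60931612, encodes c-Rel, a subunit prominent in lymphocytes. Its start ranked 4822 and 5357 in H3K27ac high, 3221 and 4696 in H3K27ac low and 5898 and 6708 in live control libraries. The 3 groups did not overlap, the low libraries ranking it best and the live control worst. The summits lay at -293 to -6 bp relative to the start, the farthest being that of H3K27ac high replicate 1.

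NFKB2, on chr10:102394110-102402529, encodes the precursor processed to p52. Its start ranked 5021 and 3622 in H3K27ac high, 1480 and 2992 in H3K27ac low and 3803 and 5359 in live control libraries. Both low libraries ranked it better than the other 4. All 6 summits lay within 44 bp of each other, at chr10:102394341-102394385, between the first and second annotated starts. The third start had its own summit in every full list but a far worse rank, 21521 and 30380 in H3K27ac high, 18018 and 27061 in H3K27ac low and 48884 and 57385 in live control libraries.

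RELB, on chr19:45001464-45038192, encodes the partner of p52. Its strand was not annotated in the tables used, and its lower-coordinate end was taken as the start. The summit there ranked 3433 and 1373 in H3K27ac high, 1190 and 361 in H3K27ac low and 12729 and 2131 in live control libraries. Both low libraries ranked it better than the other 4, and live control replicate 1 stood apart from its replicate. The 6 summits lay 537 to 578 bp inside that end. The upper end, chr19:45038192, had no summit within 1 kb among H3K27ac high replicate 1 and live control replicate 2, and ranked 27471 in H3K27ac high replicate 2, 12885 and 15842 in H3K27ac low and 11545 in live control replicate 1. The nearest start to it is that of CLASRP.

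**Figure D2:**
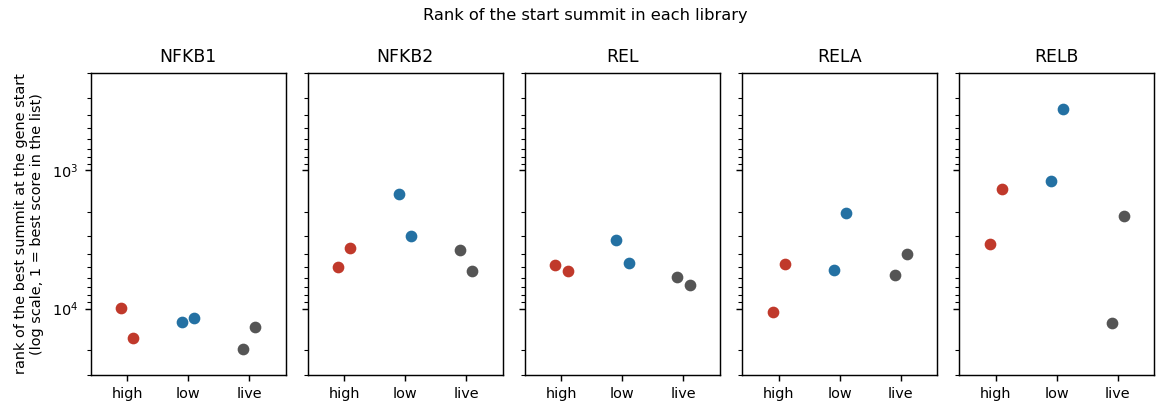
Rank of the best summit within 1 kb of the start of each member (y axis, log scale, rank 1 at the top) in each library, grouped as H3K27ac high, H3K27ac low and live control. Each point is 1 library. The low libraries rank NFKB2 and RELB best, the 3 groups are separate for REL, and NFKB1 lies between ranks 9840 and 19420.

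Against the low libraries, the high libraries ranked the starts of NFKB2, REL and RELB worse without overlap. The mean rank of NFKB2 was 4321.5 ± 989 in high and 2236 ± 1069 in low, that of REL 5089.5 ± 378 in high and 3958.5 ± 1043 in low, and that of RELB 2403 ± 1457 in high and 775.5 ± 586 in low (SD, n = 2 each). Each of these had an exact two-sided permutation p of 0.333, the smallest that 2 against 2 allows, and 0.555 after Benjamini-Hochberg adjustment over 20 comparisons. NFKB1 (difference of means 991) and RELA (difference 3991) overlapped. The count of 3 of 5 members stands beside 38.2% of the 8298 genes open in all libraries that ranked worse in both high libraries, and 0 of 5 beside 13.2% that ranked better. The sizes moved with single libraries. The REL difference of 1131 ranks was 393.5 without H3K27ac low replicate 1 and 1868.5 without H3K27ac low replicate 2. The RELB difference of 1627.5 was 597.5 without H3K27ac high replicate 1 and 2657.5 without H3K27ac high replicate 2. The NFKB2 difference of 2085.5 was 1329.5 without H3K27ac low replicate 1 and 1386 without H3K27ac high replicate 1.

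Against the live control, the low libraries ranked NFKB1, NFKB2, REL and RELB better without overlap (4 of 5, beside 39.9% of the 8298 genes), and the high libraries ranked REL better (1 of 5, beside 25%). No member ranked worse without overlap in low (beside 22.2%), in high (beside 30.8%) or in all sorted libraries (beside 15.3%). REL was the member that all 4 fixed and sorted libraries ranked better than both live control libraries, at a mean of 4524 ± 915 (SD, n = 4) in the sorted libraries and 6303 ± 573 (SD, n = 2) in the live control. The exact two-sided permutation p was 0.0667, the smallest that 4 against 2 allows, and 0.555 after adjustment, and 20.2% of genes shared this pattern. The count of 1 member was 3 without H3K27ac high replicate 1 or without live control replicate 2, and 2 without H3K27ac high replicate 2 or without live control replicate 1. These comparisons use the same live control libraries. For NFKB1 and RELB the size of the difference between low and live moved with the live control library left out. The NFKB1 difference of -4431.5 was -1481.5 without live control replicate 1 and -7381.5 without live control replicate 2, and the RELB difference of -6654.5 was -1355.5 without live control replicate 1 and -11953.5 without live control replicate 2.

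The summits in each gene body and the 50 kb on either side were counted next. Among the best summits, the NFKB1 window held 5 and 7 in H3K27ac high, 7 and 5 in H3K27ac low and 5 and 6 in live control libraries. The NFKB2 window held 7 and 5 in H3K27ac high, 6 and 6 in H3K27ac low and 6 and 6 in live control libraries. The groups overlapped for both genes, the precursor subunits.

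The REL window held 6 and 7 summits in H3K27ac high, 9 and 8 in H3K27ac low and 3 and 5 in live control libraries. The RELA window held 5 and 5 in H3K27ac high, 8 and 8 in H3K27ac low and 6 and 7 in live control libraries. In both of these windows the low libraries had the most and no 2 groups overlapped, but the high libraries were the lowest for RELA and the middle group for REL. The RELB window held 4 and 5 in H3K27ac high, 5 and 6 in H3K27ac low and 6 and 5 in live control libraries, which overlapped. Summed over the 5 windows, there were 27 and 29 in H3K27ac high, 35 and 33 in H3K27ac low and 26 and 29 in live control libraries.

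**Figure D3:**
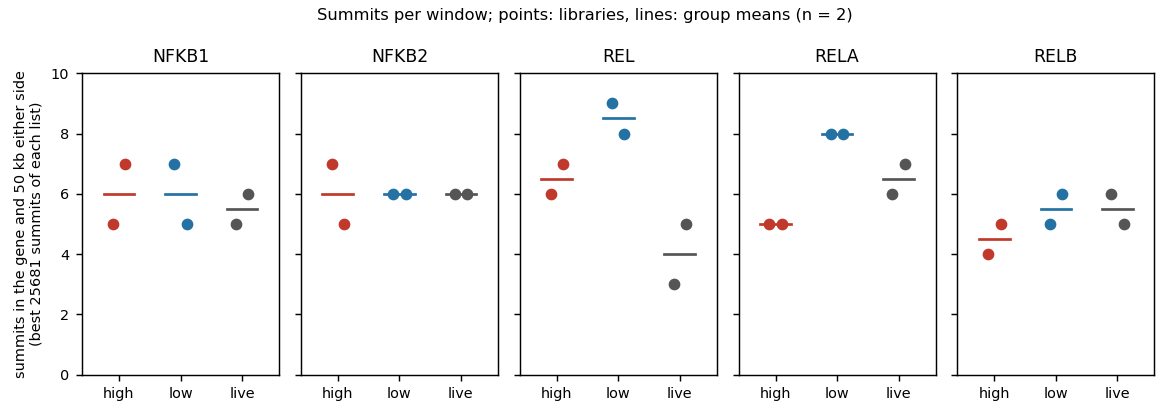
Summits in the window of each member (y axis, count among the best 25681 of each list) by library, in the order H3K27ac high, H3K27ac low and live control, with group means as lines. In the REL and RELA windows both low libraries lie above all others, and the NFKB1, NFKB2 and RELB groups overlap.

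Against the low libraries, the high libraries held fewer summits in the REL window (6.5 ± 0.71 in high and 8.5 ± 0.71 in low) and in the RELA window (5 ± 0 in high and 8 ± 0 in low, SD, n = 2 each). The exact two-sided permutation p was 0.333 for each, the smallest possible, and 0.951 after Benjamini-Hochberg adjustment over 20 comparisons. The count of 2 of 5 members stands beside 11.9% of 17548 genes with fewer summits in both high libraries, and 0 of 5 beside 4.73% with more. In the full lists the REL windows overlapped, with 6 and 12 in H3K27ac high and 12 and 13 in H3K27ac low, and the RELA windows did not, with 5 and 8 in high and 10 and 9 in low. With 12840 summits per list the REL groups overlapped (difference -1), and RELA (-2) and RELB (-1.5) did not. With H3K27ac high replicate 1 left out and lists lengthened to 41888 summits, the high minus low difference was 0 for REL and -1 for RELA. Without H3K27ac high replicate 2, 4 members had no overlap in place of 2. REL (-2.5), RELA (-3) and RELB (-1.5) were lower in high and NFKB2 (1) was higher. In that setting 5219 genes were lower in high and 2794 higher, so far more genes had no overlap than with all libraries.

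REL was also the member with more summits in all 4 sorted libraries than in both live control libraries, 7.5 ± 1.29 (SD, n = 4) in sorted and 4 ± 1.41 (SD, n = 2) in live control libraries (exact two-sided permutation p = 0.0667, the smallest that 4 against 2 allows, and 0.951 after adjustment). This held for 2.75% of genes, and no member had fewer in all sorted libraries, beside 4.79%. In the full lists, which are longest in the live control, NFKB2 (difference -2.25), RELA (-3) and RELB (-4.75) had fewer in all sorted libraries. So did 9039 of the 19970 genes, and 7 had more. At equal list length, each sorted group taken alone was above the live control for REL too. The difference was 2.5 for the high libraries (beside 6.75% of genes) and 4.5 for the low libraries (beside 9.14%). The difference between sorted and live control libraries depended on list length and window. In the full lists the REL window held 6, 12, 12 and 13 in the sorted libraries and 12 and 12 in live control libraries, a difference of -1.25, and with 20 kb on either side the difference was 1. The RELA window held more in both low than in both live control libraries (difference 1.5, beside 9.14% of genes) and fewer in both high than in both live control libraries (difference -1.5, 14% of genes).

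Per 100 kb, all 5 windows were denser in every library than the median gene window, which had 1.43 to 1.68 summits. NFKB2 had 4.61 to 6.46 summits per 100 kb, RELA 4.53 to 7.26, REL 2 to 6, RELB 2.93 to 4.39 and NFKB1 2.32 to 3.24. The NFKB2 window was denser than at least 92% of all gene windows in every library, and RELA than at least 91.6%. REL ranged from 59.9% in live control replicate 1 to 96.1% in H3K27ac low replicate 1. The windows are not alike in content. That of NFKB2 also holds GBF1, PSD, FBXL15, CUEDC2 and C10orf95, that of RELA holds MAP3K11, PCNX3, SIPA1 and KAT5, that of RELB holds CLPTM1, CLASRP, ZNF296 and GEMIN7, that of REL holds PUS10 and that of NFKB1 holds MANBA.

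Chained at 250 bp, the summits of all lists formed 79 regions in the 5 windows, 22 of them called in all 6 full lists (27.8%, beside 19.8% of all 100513 regions). Of the 79 regions, 8 lay at the starts of the members, 18 at starts of neighbouring coding genes and 25 in the members' bodies. These counts overlap, since several start regions of the members also lie inside the gene body. Of the 22 regions in all 6 lists, 13 lay within 1 kb of a start, beside 38.8% of the 19855 such regions overall. The NFKB2 window had 7 of its 11 regions in all 6 lists, REL 6 of 16, RELA 5 of 13, RELB 3 of 17 and NFKB1 1 of 22. NFKB1 thus had the most regions and the fewest shared by all libraries, in the longest gene of the 5. Between replicates, the best summits fell in shared regions in 20 of 36 member regions (55.6%) of the high group, 27 of 41 (65.9%) of the low group and 23 of 32 (71.9%) of the live control, beside 59.5%, 70.6% and 70.9% over all regions in the same order.

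The 1 region of the NFKB1 window called in all 6 lists was inside the gene at chr4:102564509-102564543, 63.2 kb from the first start. It ranked 5495 and 5013 in H3K27ac high, 9525 and 6512 in H3K27ac low and 13605 and 3101 in live control libraries, better than the gene's own start in every library. The start itself missed this count because the summit of live control replicate 1 lay at the second start. Further regions in the gene, at chr4:102543213-102543310 and chr4:102546792-102546909 among others, were called in every library except H3K27ac high replicate 1, the shortest list. The first of these ranked 14850 in H3K27ac high replicate 2, 20553 and 11252 in H3K27ac low and 17082 and 22022 in live control libraries.

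In the REL window the 3 best-ranked regions in all 6 lists, besides the start, lay upstream. The one at chr2:60839542-60839655, 42 kb before the start, ranked 17090 and 15585 in H3K27ac high, 18815 and 10632 in H3K27ac low and 16663 and 20947 in live control libraries. The one at chr2:60872722-60872758, 8.8 kb before the start in the divergent noncoding gene REL-DT, ranked 16209 and 17828 in H3K27ac high, 24656 and 25086 in H3K27ac low and 21748 and 23060 in live control libraries. Next to it, at chr2:60873536-60873598, lay the 1 region in the 5 windows that all 4 sorted libraries held among their best summits and no live control library did. It ranked 8247 and 19246 in H3K27ac high, 19886 and 20352 in H3K27ac low and 32423 and 37811 in live control libraries, and was present in all 6 full lists. Inside REL, chr2:60899625-60899756, 18.1 kb past the start, was among the best summits of both low libraries and of neither high library. It ranked 24031 and 23638 in low, 27766 in H3K27ac high replicate 2, 32797 and 18694 in live control libraries, and was not called in H3K27ac high replicate 1.

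In the NFKB2 window, the 3 best-ranked regions in all 6 lists, besides the start, were the starts of neighbours. That of CUEDC2 at chr10:102432647-102432718 ranked 6650 and 5700 in H3K27ac high, 6715 and 3741 in H3K27ac low and 4517 and 5085 in live control libraries. That of FBXL15 ranked 9113 and 11055 in H3K27ac high, 8895 and 9986 in H3K27ac low and 13674 and 15327 in live control libraries. That of C10orf95 ranked 12036 and 15204 in H3K27ac high, 8989 and 10004 in H3K27ac low and 16821 and 18242 in live control libraries.

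The best-ranked region of the RELA window was not that of RELA but the start of PCNX3 at chr11:65615439-65615589, with 2012 and 1400 in H3K27ac high, 706 and 1031 in H3K27ac low and 3281 and 1723 in live control libraries. Between SIPA1 and RELA, 11.1 kb from the first start of RELA and past the gene's 3′ end, chr11:65652685-65652851 ranked 22720 and 12570 in H3K27ac high, 5017 and 7727 in H3K27ac low and 18462 and 14703 in live control libraries. Both low libraries ranked this intergenic region better than the other 4, and the share of all regions with this pattern was not counted. Among gene starts open in all libraries, 38.2% ranked worse in both high than in both low libraries. Likewise, 39.9% ranked better in both low than in both live control libraries. The KAT5 start at chr11:65712035-65712306 ranked 21373 and 16726 in H3K27ac high, 8252 and 8997 in H3K27ac low and 14495 and 9678 in live control libraries. At the SIPA1 start, chr11:65638067-65638141 was among the best summits of both low libraries, at 25676 and 24484, and of neither high library. It ranked 31365 in H3K27ac high replicate 2, and 38420 and 26775 in live control libraries. A further region within 1 kb of a SIPA1 start, chr11:65639785-65639866, was among the best summits of both low and both live control libraries and of H3K27ac high replicate 2. It ranked 22469 in H3K27ac high replicate 2, 23728 and 22259 in H3K27ac low and 16252 and 25043 in live control libraries. H3K27ac high replicate 1 had no summit there.

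In the RELB window, the regions in all 6 lists besides the start were the CLPTM1 start at chr19:44955277-44955420 (10525 and 21801 in H3K27ac high, 7018 and 10524 in low, 12423 and 19691 in live control libraries) and the start between ZNF296 and GEMIN7 at chr19:45075417-45075598 (14687 and 7590 in H3K27ac high, 5195 and 6552 in low, 9361 and 14258 in live control libraries). The CLASRP start at chr19:45039010-45039111 was among the best summits of both low libraries, at 12885 and 15842, of neither high library (27471 in H3K27ac high replicate 2) and of live control replicate 1 at 11545. Live control replicate 2 had its summit at this start in a separate region, chr19:45039442, at rank 13949.

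**Figure D4:**
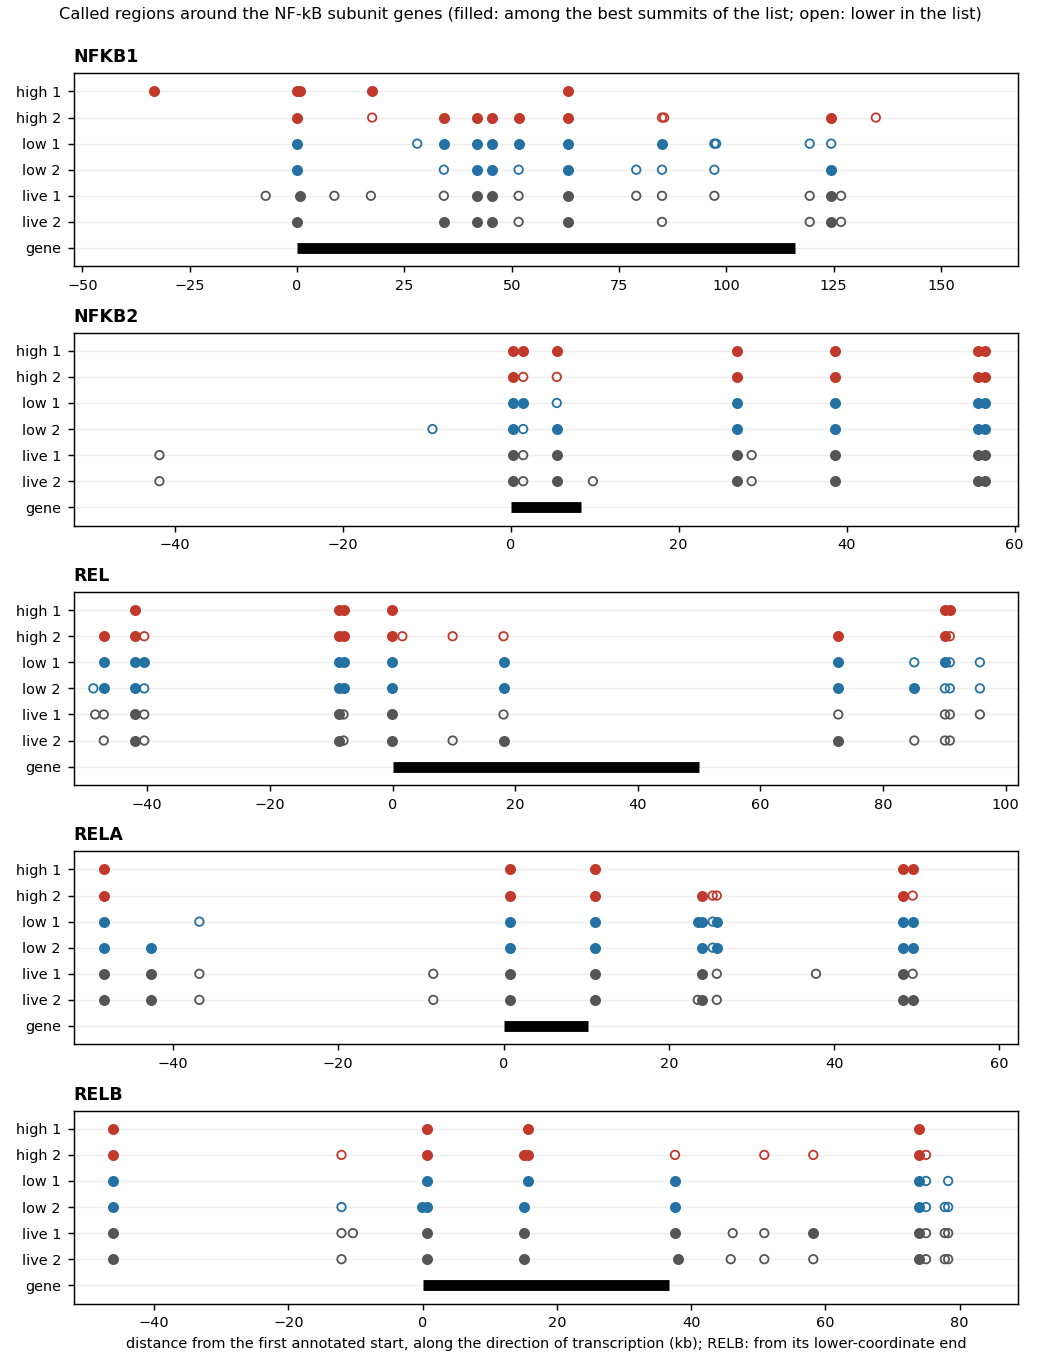
Regions of chained summits in the 5 member windows, as distance in kb from the first annotated start along the strand of each gene, or along the chromosome for RELB (x axis), with 1 row per library from H3K27ac high at the top to the live control at the bottom. Each point is a region called in that library, filled where its summit is among the best 25681 of the list and open where it is lower, and the bar is the gene body; NFKB1 has regions spread over a long body, while those of NFKB2 and RELA lie mostly outside a short one.

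Across the 5 windows, 47 regions held a best summit in any library and 16 held one in all 6 (34%, beside 35.2% of 41466 regions overall). At equal list length no region was held by both high and neither low library (0 of 47, beside 2.37%), and 3 were held by both low and neither high library (beside 3.29%), those in REL and at the SIPA1 and CLASRP starts. The sorted-only region upstream of REL was 1 of 47, beside 1.41%. No region was held by both live control libraries and by no sorted library (0 of 47, beside 2.18%). These counts are near the background. In the full lists, 1 of 79 regions was high-only (beside 0.443%), 4 low-only (3.08%), 0 sorted-only (0.154%) and 4 live-only (8.36%). Without H3K27ac high replicate 2 there were 4 high-group and 8 low-group regions, and 6 low-group regions on leaving out H3K27ac low replicate 1 or H3K27ac low replicate 2. Without H3K27ac low replicate 1 there were 2 high-group regions.

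The genes around the subunits in the pathway were next counted by open start in all 6 libraries, beside 41.6% of all genes. Of 11 inhibitors of NF-kB and its route, 9 were open (81.8%). The best-ranked was CYLD, a deubiquitinase, at 186 and 149 in H3K27ac high, 61 and 168 in H3K27ac low and 350 and 295 in live control libraries. TNFAIP3, which encodes the ubiquitin-editing protein A20, ranked 2020 and 3459 in H3K27ac high, 1036 and 3885 in H3K27ac low and 6762 and 9034 in live control libraries. BCL3, a nuclear member of the inhibitor family that binds p50 and p52, was open in both low libraries, at 12439 and 22757, and in no other. This pattern against high was seen at 1.46% of all genes. NFKBIA, which encodes the main inhibitor degraded in the canonical route, ranked 7193 and 6265 in H3K27ac high, 5600 and 7986 in H3K27ac low and 9551 and 5404 in live control libraries, overlapping throughout.

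Of 25 kinases and adaptors of the canonical route, 19 were open in all libraries (76%). BCL10, part of the complex that couples the B cell receptor to NF-kB, ranked 278 and 314 in H3K27ac high, 169 and 195 in H3K27ac low and 270 and 584 in live control libraries. BIRC3, a ubiquitin ligase that is also in the target list, ranked 214 and 356 in H3K27ac high, 419 and 1030 in H3K27ac low and 2531 and 3709 in live control libraries, with no overlap between any 2 groups. IRAK4 and MAP3K7, kinases of receptor signalling, were the other 2 of the 4 best-ranked. TRAF5 was open in no library.

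The alternative route had 3 of 8 genes open in all libraries (37.5%), namely MAP3K14, BTRC and TNFSF13B. MAP3K14, the kinase that starts NFKB2 processing, ranked 1006 and 1074 in H3K27ac high, 504 and 1322 in H3K27ac low and 2990 and 1400 in live control libraries. TNFRSF13C, which encodes the BAFF receptor, was open in both low libraries, at 21442 and 19548, and in no other. Of 18 known target genes in B cells, 9 were open in all libraries (50%). CCR7, a chemokine receptor gene, was open in both low libraries, at 22564 and 19658, in both live control libraries, at 15589 and 25046, and in neither high library.

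Over the 61 different pathway genes 39 were open in all libraries (63.9%), between 41 and 51 by library. Of these 39, both high libraries ranked 15 worse than both low libraries and 4 better. The same was seen above at 38.2% and 13.2% of all genes open in every library. The 3 of 61 genes open in both low and neither high library were BCL3, TNFRSF13C and CCR7, beside 1.46% of all genes. No pathway gene was open in both high and neither low library, beside 0.255% of all genes. None was open in all sorted and neither live control library, or the reverse, each seen at 0.346% of all genes. An open start says nothing of how strongly a gene is transcribed.

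**Figure D5:**
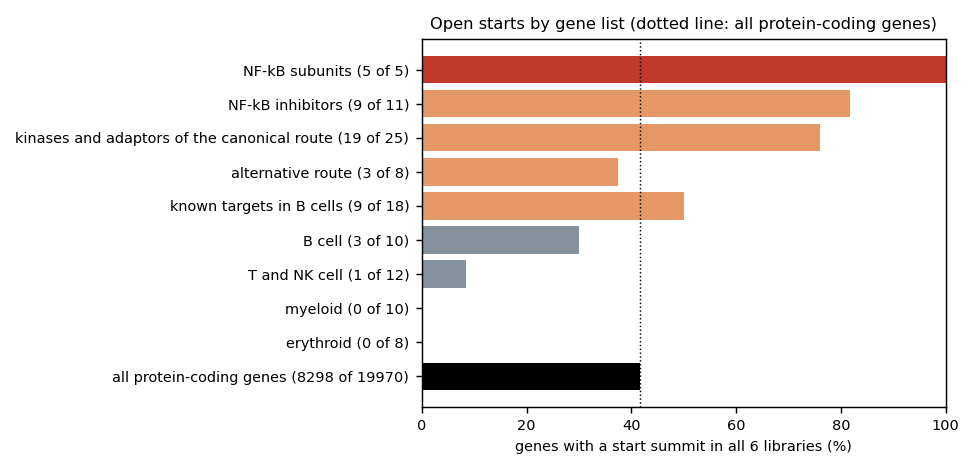
Percent of the genes of each list with an open start in all 6 libraries (x axis, from 0), with the number of genes beside each bar and the share of all protein-coding genes, 41.6%, as a line. Inhibitors (81.8%) and canonical kinases and adaptors (76%) lie above the line, and the alternative route (37.5%), the B cell markers (30%) and the T and NK cell, myeloid and erythroid markers lie below it.

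The start ranks of each member over the 6 libraries were set against those of the other genes open in all of them, by the root mean square difference of log2 rank. NFKB2 was closest to YTHDF2 (0.11), then to THAP8 and WDR62 (0.21), which share a start region. NFKB1 was closest to ARMCX6 (0.14), then to ATG4B and THAP4 (0.17), which also share one. REL was closest to TRMO (0.16), MRPL1 (0.18) and MARS2 (0.19). RELA had no gene closer than NCBP3 and MAGI3 (0.32) and ACLY (0.33), and RELB none closer than SLC20A1 (0.65), EIF3D (0.66) and DHX35 (0.7). No member was among the 3 closest genes of another.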

How the data were processed

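Per the labels, accessibility was measured in 6 GM12878 libraries of 3 groups, taken from the sample titles; the staining protocol writes the antibody target once as H3K37ac. The submitters' processing notes name Bowtie2, MACS2, Picard, FastQC and bcl2fastq without versions, and the builds hg38 and hg19. Settings, any Tn5 shift and duplicate removal were not given in the sources used here. The deposited lists hold 1-base summits on hg38, called per library, with a score read as −log10 of a p-value or q-value from the authors' caller, used here to rank summits within a list. No counts were used, so depth and its precision are unknown.

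Lists were compared at the length of the shortest, ties broken by a seeded draw. Gene positions, promoter starts and sequences came from RefSeq tables (GRCh38.p14), without exons. Genes with no promoter entry (4159 of 19970, RELB among them) have both ends as starts in the counts over all genes and in the pathway lists. This departs from the plan for RELB, where the lower-coordinate end was used and the upper end given beside it. Groups were compared by overlap of library values and by exact two-sided permutation tests over libraries, with Benjamini-Hochberg adjustment over 20 comparisons per measure, in Python 3.11.15 with numpy 2.4.6 and pandas 2.3.3; the functions were tested on simulated data. Regions named are the start, the 3 best-ranked others in all 6 lists, and those in 1 group, per window; NFKBIA, TRAF5 and any region named beyond this rule were chosen after their values were seen. The members and lists were chosen with earlier results of these data known. Replicate numbers were not taken to pair libraries in the main comparisons. The deviations of same-numbered libraries correlated at 0.08 (high and low) and 0 (high and live). With 2 libraries a group, these values cannot show whether same-numbered libraries were prepared together.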

Additional observations from a re-analysis of the deposited data

Results flagged for a closer look

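H3K27ac low replicate 2 listed 18 summits on the Epstein-Barr virus contig, which the comparisons above do not use, against 16 and 17 in the live control libraries. H3K27ac low replicate 1 listed 15 and the high libraries 11 and 10. It is given because it lies above both live control libraries. The difference was not tested, and lists differ in length.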

How the results depend on the processing

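No read counts were used, so depth limits every value to an unknown extent, and 2 libraries a group cannot bring an exact p under 0.333. Members with an open start in every library numbered 4 with 12840 summits (NFKB1 lost) and 4 within 500 bp of a start (RELB lost), and 5 under the other alternatives run, leave-one-out included (5 to 5). With the full lists, 1 member did not overlap between high and low, 3 between sorted and live (NFKB2, RELA and RELB, all lower in sorted); 133 genes were higher in high, 7 higher and 9039 lower in sorted; high-only, sorted-only and live-only regions numbered 1, 0 and 4. Full lists also reversed NFKB1 high against live (-4), low against live (-1.5) and sorted against live (-2.75), REL high against live (-3) and sorted against live (-1.25) and RELA low against live (-1.5). With 12840 summits, members without overlap were 2 (high and low: RELA and RELB, with REL lost at -1), 0 (high and live), 4 (low and live) and 0 (sorted and live), pathway genes open in every library 21 and low-only regions 1. With 20 kb, 1356 genes were lower in high and 0 members differed between high and live or sorted and live; with 100 kb 1 member did between high and live. With the gene body alone, members without overlap were 1 (high and low) and 0 (high and live, low and live, sorted and live), genes 448 and 561 (higher and lower in high) and 200 and 358 (in sorted), and RELB reversed against low (0.5), NFKB1 (-0.5), REL (-0.5) and RELB (0.5) in high against live, and RELB in sorted against live (0.25). Chaining at 1000 bp left 0 sorted-only regions. With H3K27ac high replicate 1 left out and lists lengthened, a choice made after seeing the data, 1 member did not overlap between high and low and 1 between low and live, genes numbered 3285 and 3371 (high) and 797 and 1434 (sorted), 3 members ranked better in sorted, high-only regions were 5 and sorted-only 2, and RELB reversed in high against low (2), high against live (1.5) and sorted against live (0.167), and the RELA start rank in high against live (-128) and sorted against live (-860). Leaving out 1 library gave 2 to 4 members without overlap between high and low, 2 to 4 between high and live (4 without either high library), 2 to 3 between low and live and 1 to 1 between sorted and live; 830 to 2794 genes higher and 2080 to 5219 lower in high, 646 to 1044 higher and 1045 to 2132 lower in sorted, beside 483 and 840 with all libraries; 3 to 4 members ranked better in low than high, 4 to 5 in low than live and 1 to 3 in sorted than live; 39 to 42 pathway genes; and 0 to 4 high-only, 3 to 8 low-only, 1 to 3 sorted-only (3 without H3K27ac low replicate 2, 2 without H3K27ac high replicate 1 or live control replicate 2) and 0 to 1 live-only regions. Start rank differences reversed for RELA without H3K27ac high replicate 1 (high against live -128, range to 5657; sorted against live -860, range to 1976), without live control replicate 2 (sorted -77) and without H3K27ac low replicate 2 (low against live 399, range from -2852); for NFKB1 in high against low without H3K27ac high replicate 2 (-2198.5, range to 4180.5); for NFKB2 in high against live without H3K27ac high replicate 2 (440) or live control replicate 2 (518.5, range from -1037.5); and for RELB in high against live without live control replicate 1 (272, range from -10326). NFKB1 window differences from live reversed without H3K27ac high replicate 2 (-0.5, high) and without H3K27ac low replicate 1 (-0.5, low). With the replicate number as a block, members without overlap between high and low numbered 3, since RELB was 1 lower in high in both numbers (exact p 0.5, the smallest possible); genes were 1131 and 2781 (high) and 617 and 1058 (sorted), and no other window call of a member changed; start ranks were not run with the block. The causes were not tested.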
